A study of Mus musculus with 25 samples.

Results

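The transcript *Xbp1* and 9 further genes of the unfolded protein response, namely *Hspa5*, *Sdf2l1*, *Herpud1*, *Pdia4*, *Dnajb9*, *Atf4*, *Ddit3*, *Ern1*, and *Atf6*, were examined in mRNA bound to the ribosomes of spinal cord cholinergic neurons by day and by night. The 10 genes were listed by name, with ZT20 set against ZT8 within each genotype, and all 10 were among the 50559 genes of the count table and among the 21738 genes with enough counts to test. The genes were chosen by name with their measured differences between ZT20 and ZT8 in these same libraries known, so the levels at ZT8 and ZT20 are given as a description of these genes and not as a test.

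Each library came from the spinal cord of 1 C57BL/6J male mouse of 6 mo, kept in 12 h of light and 12 h of dark, and ZT8 lies in the light period and ZT20 in the dark period. Controls were *ChAT-Cre;RiboTag fx/+* mice, and *ChAT-BKO* mice carried in addition the floxed clock gene *Bmal1* on both alleles (*ChAT-Cre;RiboTag fx/+;Bmal1 fx/fx*). In all mice Cre recombinase was driven from the *Chat* gene, so that only cells with a history of *Chat* expression carried HA-tagged ribosomes, and in *ChAT-BKO* mice the same cells lost *Bmal1*. There were 6 mice in each of the 4 groups (control at ZT8, control at ZT20, *ChAT-BKO* at ZT8, *ChAT-BKO* at ZT20), which gave 24 immunoprecipitated (IP) libraries, and 1 pooled input library held whole spinal cord RNA of both genotypes.

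Proteins of the secretory pathway and the cell surface fold in the endoplasmic reticulum (ER), and an excess of unfolded protein there starts the unfolded protein response through the sensors IRE1, ATF6, and PERK. Activated IRE1 splices the *Xbp1* transcript, and the protein made from the spliced form raises the transcription of chaperones, folding enzymes, and components of ER-associated degradation. ATF6 is cut to release a transcription factor with overlapping targets, and PERK slows translation while favoring synthesis of ATF4, which acts on amino acid genes and on *Ddit3*. Motor neurons, which make up a large part of spinal cholinergic neurons, have long axons and a high secretory load, and ER stress is often studied in motor neuron disease. The counts are per gene and do not separate the spliced from the unspliced form of *Xbp1*.

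Total counts ran from 4.04 to 31.7 M per IP library, with group medians of 9.20 M in controls at ZT8, 12.4 M in controls at ZT20, 15.1 M in *ChAT-BKO* at ZT8, and 7.62 M in *ChAT-BKO* at ZT20. The 3 shallowest libraries were all *ChAT-BKO*, replicate 5 at ZT8 (4.04 M) and replicates 5 and 6 at ZT20 (5.22 and 5.26 M). The targeted gene, listed as *Arntl*, stood at 8.44 ± 1.43 CPM (counts scaled to library size in M; SD, n = 6) and 8.73 ± 1.18 CPM in controls at ZT8 and ZT20, and at 2.64 ± 0.538 and 1.92 ± 0.515 CPM in *ChAT-BKO* libraries. All 7 cholinergic markers were enriched over the input pool (median log2 ratio 2.76), while the median log2 ratios to input of astrocyte, oligodendrocyte, microglial, and endothelial markers were −3.87, −3.20, −3.80, and −3.33. Skeletal muscle markers, at a median log2 ratio to input of −2.60, varied widely between libraries, with sums over 10 genes from 4.39 to 178 CPM, and at ZT20 all 10 had a positive log2 fold change of *ChAT-BKO* over control (1.32 to 3.56), of which 5 passed an adjusted p of 0.05 (edgeR) beside 0.207% of all genes. Of 6 plasma cell markers, a cell type known for high *Xbp1*, *Jchain*, *Mzb1*, *Igkc*, and *Cd79a* averaged under 1 CPM in each group, each with libraries at 0 counts, *Sdc1* averaged 3.14 CPM over the IP libraries, and *Ighm* had group means of 65.0 to 72.3 CPM and was above input in all 24 (mean log2 ratio 0.90). The sum of the 6 ran from 64.8 to 79.4 CPM in controls and from 62.6 to 81.3 CPM in *ChAT-BKO* libraries, nearly all of it *Ighm*, and 0 of the 6 were called for time over both genotypes (edgeR; median log2 fold change 0.16, 0 at an unadjusted p under 0.05). The part of these cells in the level of *Xbp1* was not tested.

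All 10 genes were detected in every IP library, from 20 counts for *Ern1* in its lowest library to 17376 counts for *Hspa5* in its highest. Per kb of exon, the 12 control libraries ranked *Hspa5*, which encodes the main ER chaperone BiP, highest, at 127 ± 10.7 CPM per kb (SD, n = 12). *Atf4* followed at 69.3 ± 8.63 and *Herpud1* at 38.0 ± 3.22 CPM per kb, and the ranges of these leading genes over libraries did not meet. *Pdia4* (19.5 ± 2.03), *Sdf2l1* (14.8 ± 2.14), *Xbp1* (12.7 ± 2.68), and *Ddit3* (9.16 ± 0.957 CPM per kb) came next, and in this run each gene's range over libraries overlapped that of its neighbor. *Dnajb9* at 4.62 ± 0.594 and *Atf6* at 4.10 ± 0.309 CPM per kb also overlapped, and the sensor gene *Ern1* was lowest at 0.547 ± 0.0668 CPM per kb.

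In GENCODE on GRCm38 (the assembly also called mm10), *Xbp1* lies at chr11:5520659-5525893 on the plus strand, *Hspa5* at chr2:34771970-34777547 on the plus strand, *Herpud1* at chr8:94386438-94395377 on the plus strand, *Pdia4* at chr6:47796141-47813430 on the minus strand, and *Sdf2l1* at chr16:17130138-17132383 on the minus strand. RefSeq promoter windows on GRCm38.p6, running from 250 bases before to 50 bases after the start of transcription, were found for 9 of the 10 genes, all but *Atf6*. The 250 bases upstream are shown for *Xbp1*, the transcript that differed most between ZT8 and ZT20, and for the chaperone gene *Hspa5* and the degradation gene *Herpud1*, the pair whose windows held an ER stress response element. Capitals mark the motifs found, and the windows lie at chr11:5520391-5520640, chr2:34771840-34772089, and chr8:94386179-94386428, all on the plus strand.
Xbp1: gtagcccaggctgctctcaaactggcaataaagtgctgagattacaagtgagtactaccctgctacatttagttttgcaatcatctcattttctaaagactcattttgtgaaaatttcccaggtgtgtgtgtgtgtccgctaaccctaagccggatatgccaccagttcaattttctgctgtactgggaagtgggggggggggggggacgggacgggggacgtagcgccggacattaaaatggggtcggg
Hspa5: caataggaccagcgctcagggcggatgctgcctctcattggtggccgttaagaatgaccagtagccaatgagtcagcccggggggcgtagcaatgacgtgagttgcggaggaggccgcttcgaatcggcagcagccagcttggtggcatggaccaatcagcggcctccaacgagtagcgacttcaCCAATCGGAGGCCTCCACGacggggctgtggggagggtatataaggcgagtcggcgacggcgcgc
Herpud1: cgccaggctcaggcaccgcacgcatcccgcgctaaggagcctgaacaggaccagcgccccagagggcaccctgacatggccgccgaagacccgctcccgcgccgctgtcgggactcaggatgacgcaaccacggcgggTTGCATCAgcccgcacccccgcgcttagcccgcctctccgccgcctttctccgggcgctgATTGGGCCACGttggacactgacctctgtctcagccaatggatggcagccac
The capitals in *Hspa5* are the ER stress response element (ERSE), CCAAT and CCACG separated by 9 bases, which lay from −65 to −47 of the start. On both strands this motif occurred in 39 of 32851 promoter windows (0.119%). Those in *Herpud1* are an amino acid response element (TGATGNAA, read on the opposite strand, at −112 to −105), found in 3.97% of all windows, and an ERSE-II (ATTGG and CCACG separated by 1 base, at −52 to −42), found in 0.0365%. No match to these motifs, to the unfolded protein response element TGACGTGG (0.676% of windows), or to the clock-related E-box CACGTG (7.15%) and D-box TTATGTAA (0.938%) was found in the *Xbp1* window, and *Dnajb9* held an E-box at −107 to −102. A match describes letters in a window and not the binding of a factor.

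*Xbp1* was higher at ZT20 than at ZT8 in both genotypes, by close to 1.5-fold. In controls its level ran from 27.3 to 37.4 CPM at ZT8 (median 34.5) and from 41.0 to 53.5 CPM at ZT20 (median 49.2). In *ChAT-BKO* libraries it ran from 27.9 to 35.1 CPM at ZT8 (median 32.7) and from 45.1 to 51.3 CPM at ZT20 (median 48.4). All ZT20 libraries thus stood above all ZT8 libraries in both genotypes, which was the case for no other gene of the 10 and for 29 of the 21738 genes tested (0.133%). The log2 fold change was 0.54 in controls (95% confidence interval 0.37 to 0.70, or 1.45-fold) and 0.57 in *ChAT-BKO* neurons (0.43 to 0.69, or 1.48-fold). The group means ordered as control at ZT20 (48.6 ± 4.48 CPM), *ChAT-BKO* at ZT20 (48.3 ± 2.11), control at ZT8 (33.6 ± 3.38), and *ChAT-BKO* at ZT8 (32.4 ± 2.46), and only the step between the times was larger than the spread within groups. In bulk samples of this kind, fewer cells of a type and less RNA per cell cannot be told apart.

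**Figure D1:**
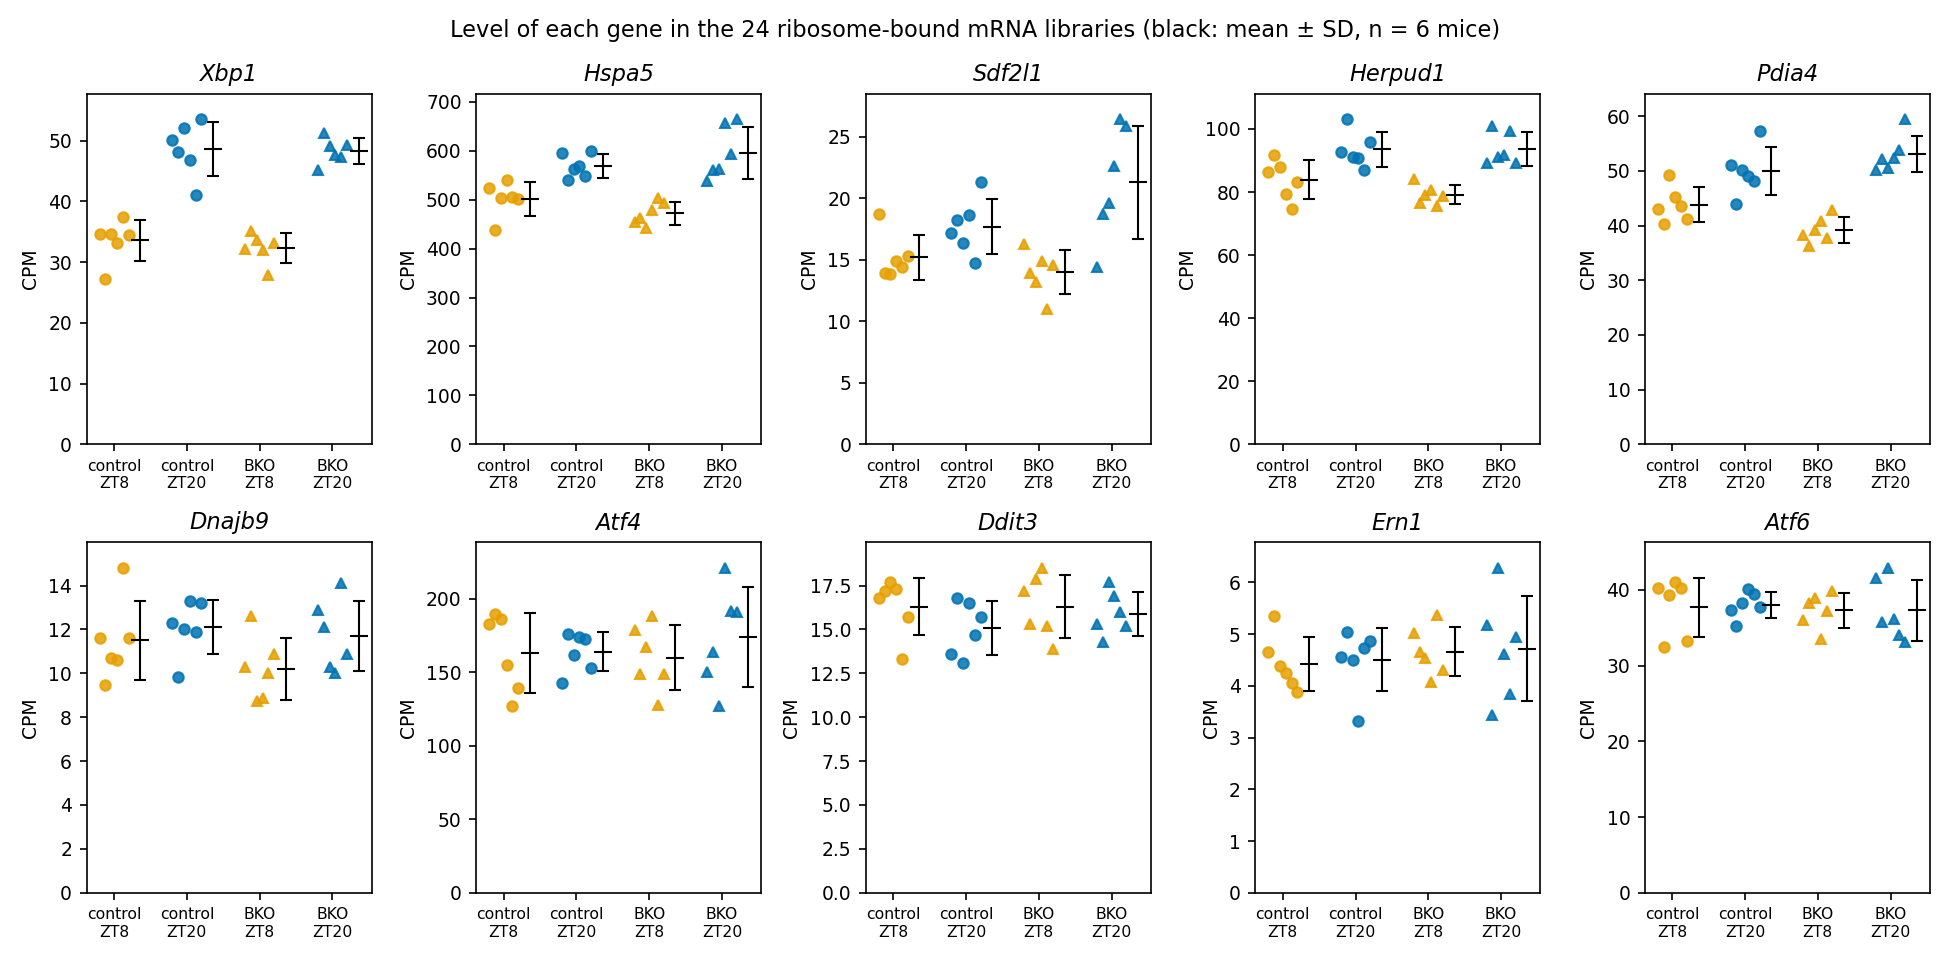
Level of each of the 10 genes in CPM (vertical axis, from 0) in the 24 IP libraries, by genotype and time, with circles for controls, triangles for *ChAT-BKO* (BKO), orange for ZT8, blue for ZT20, and black marks for the mean ± SD of 6 mice. *Xbp1* separates by time in both genotypes, between 27.3 and 37.4 CPM at ZT8 and between 41.0 and 53.5 CPM at ZT20.

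Among genes known as transcriptional targets of the response, *Hspa5* ran from 438 to 541 CPM (median 504) in controls at ZT8 and from 541 to 600 CPM (median 566) at ZT20. In *ChAT-BKO* libraries it ran from 443 to 503 CPM (median 470) at ZT8 and from 539 to 664 CPM (median 578) at ZT20. The times met at their edges in controls and did not overlap in *ChAT-BKO* libraries, and the log2 fold changes were 0.18 (1.13-fold, 95% confidence interval of the fold 1.05 to 1.22) and 0.34 (1.26-fold, 1.16 to 1.37). *Pdia4*, a protein disulfide isomerase that forms and reshuffles disulfide bonds, ran from 40.2 to 49.2 CPM (median 43.3) at ZT8 and from 44.0 to 57.3 CPM (median 49.7) at ZT20 in controls. In *ChAT-BKO* libraries *Pdia4* ran from 36.3 to 42.9 CPM (median 38.8) at ZT8 and from 50.2 to 59.4 CPM (median 52.3) at ZT20. It overlapped between times in controls only, and its log2 fold changes were 0.19 (1.14-fold, 1.04 to 1.26) and 0.43 (1.34-fold, 1.23 to 1.47).

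*Sdf2l1*, which encodes an ER protein that works with BiP and its cochaperones, had the widest spread of the 10 genes, 2.40-fold from its lowest to its highest library. In controls it ran from 13.8 to 18.7 CPM (median 14.7) at ZT8 and from 14.7 to 21.3 CPM (median 17.7) at ZT20. In *ChAT-BKO* libraries it ran from 11.0 to 16.3 CPM (median 14.3) at ZT8 and from 14.4 to 26.4 CPM (median 21.1) at ZT20, and the times overlapped in both genotypes. Its log2 fold changes were 0.22 (1.17-fold, 1.01 to 1.34) in controls and 0.54 (1.46-fold, 1.21 to 1.75) in *ChAT-BKO* neurons. *Herpud1*, a membrane component of ER-associated degradation, ran from 74.7 to 91.8 CPM at ZT8 and from 86.9 to 103 CPM at ZT20 in controls. In *ChAT-BKO* libraries *Herpud1* ran from 75.6 to 84.1 CPM at ZT8 and from 89.1 to 101 CPM at ZT20, without overlap, and its log2 fold changes were 0.15 in controls (1.11-fold, 1.02 to 1.21) and 0.24 in *ChAT-BKO* neurons (1.18-fold, 1.09 to 1.28). *Dnajb9*, a BiP cochaperone, had means of 11.5 ± 1.81 and 12.1 ± 1.24 CPM in controls and of 10.2 ± 1.42 and 11.7 ± 1.60 CPM in *ChAT-BKO* libraries, at ZT8 and ZT20 respectively, and the times overlapped in both genotypes. An antisense gene, *Gm15890*, overlaps *Herpud1*, and whether the counting used the strand of the reads is not given in the sources used here.

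The sensors and the transcription factors of the PERK branch differed between times by less than the spread within groups. *Atf4* had means of 163 ± 27.1 and 164 ± 13.4 CPM in controls and of 160 ± 22.1 and 174 ± 33.9 CPM in *ChAT-BKO* libraries, at ZT8 and ZT20, and its log2 fold changes were 0.00 (0.877- to 1.14-fold) and 0.11 (0.917- to 1.27-fold). *Ddit3*, which encodes the stress-induced factor CHOP, was the only gene of the 10 lower at ZT20 in either genotype, with log2 fold changes of −0.13 (0.808- to 1.04-fold) and −0.03 (0.858- to 1.11-fold). Its mean levels were 16.3 ± 1.61 and 15.1 ± 1.53 CPM in controls and 16.3 ± 1.78 and 15.9 ± 1.25 CPM in *ChAT-BKO* libraries. *Mars* and *Gm4189* overlap *Ddit3* on the opposite strand, which limits its value in the same way. *Ern1*, the gene of IRE1, was at 4.43 ± 0.522 and 4.51 ± 0.616 CPM in controls and at 4.66 ± 0.478 and 4.72 ± 1.01 CPM in *ChAT-BKO* libraries. *Atf6* was at 37.7 ± 3.86 and 38.0 ± 1.71 CPM in controls and at 37.3 ± 2.31 and 37.3 ± 4.01 CPM in *ChAT-BKO* libraries, and all log2 fold changes of *Ern1* and *Atf6* lay between 0.02 and 0.08. The sign of these small values was not stable, and in 30 values over the alternatives run a time effect of *Atf4*, *Ddit3*, *Ern1*, or *Atf6* turned sign.

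With edgeR across all genes, 1 of the 10 genes (*Xbp1*) passed an adjusted p of 0.05 as higher at ZT20 in controls, where 0.0828% of all genes tested did, and 3 (*Xbp1*, *Pdia4*, *Hspa5*) passed in *ChAT-BKO* neurons, where 0.230% did. For the mean of both genotypes 5 passed as higher at ZT20 (*Xbp1*, *Hspa5*, *Pdia4*, *Herpud1*, *Sdf2l1*) beside 1.69% of all genes, and 0 passed as lower beside 1.00% of all genes (edgeR, with 5 of the 10 at an unadjusted p under 0.05, all higher, beside 14.1% of all genes, and 0 lower by DESeq2 or limma voom). Without the 3 shallowest libraries 4 of the 5 passed, and *Sdf2l1* did not (log2 fold change 0.28 in place of 0.38). All 6 ZT20 libraries stood above all 6 ZT8 libraries for 1 of the 10 genes in controls (0.589% of all genes) and for 4 in *ChAT-BKO* neurons (0.676% of all genes). These contrasts served to choose the genes, and nothing further is read from the counts. The median log2 fold change of the 10 was 0.13 in controls and 0.21 in *ChAT-BKO* neurons, and that of all genes was 0.00 in each.

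**Figure D2:**
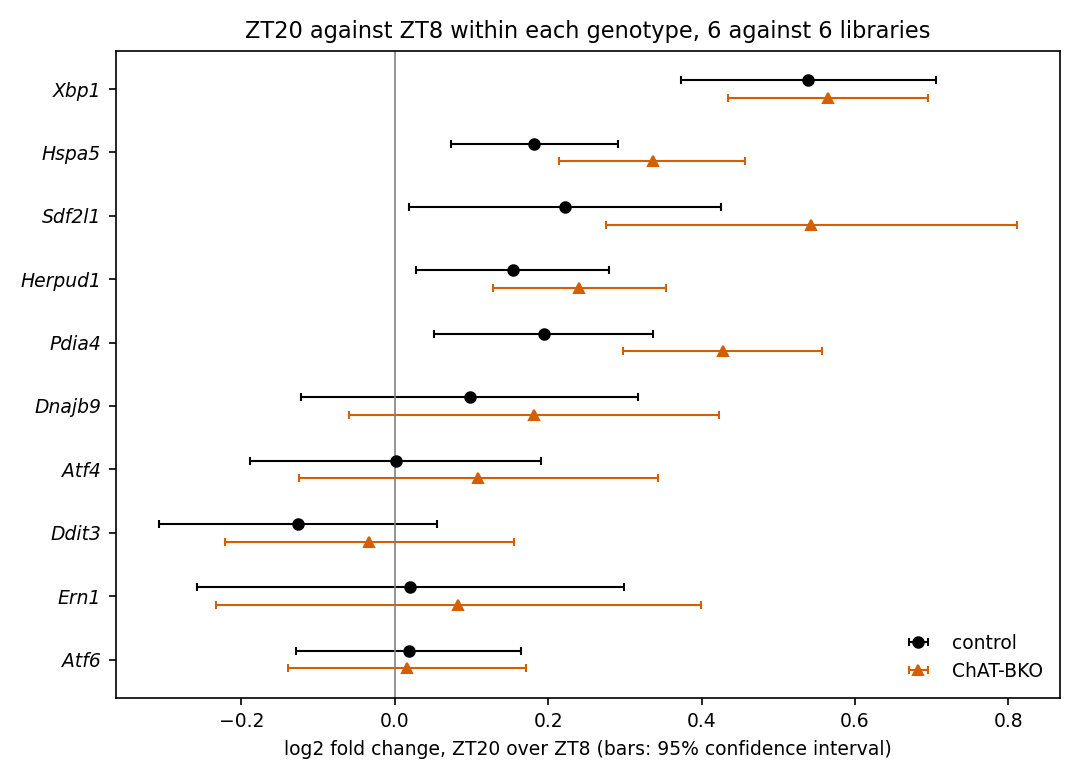
Log2 fold change of ZT20 over ZT8 (horizontal axis) with its 95% confidence interval for each of the 10 genes, in controls (black circles) and *ChAT-BKO* neurons (orange triangles), 6 against 6 libraries each. *Xbp1* lies at 0.54 and 0.57, *Pdia4* at 0.19 and 0.43, and *Atf6* and *Ern1* lie close to 0.

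The highest *ChAT-BKO* values of *Sdf2l1* and *Hspa5* at ZT20 were in shallow libraries. The 3 highest *Sdf2l1* values there, 22.6, 26.4, and 25.9 CPM, were in replicates 4 to 6, with totals of 7.80, 5.22, and 5.26 M, and the lowest, 14.4 CPM, was in replicate 1 with 17.5 M. *Hspa5* was likewise highest in replicates 4 to 6 (657, 593, and 664 CPM). Not all shallow libraries were high, and replicate 2 there, with 7.43 M, was at 18.7 CPM for *Sdf2l1* and 560 CPM for *Hspa5*. The shallowest library, *ChAT-BKO* replicate 5 at ZT8 with 4.04 M, held the lowest *Sdf2l1* value of all, 11.0 CPM. In its group that library was lowest for *Xbp1* (27.9 CPM) and highest for *Hspa5* (503 CPM). The lowest *Xbp1* value at ZT20, 41.0 CPM, was in the deepest library, control replicate 5 with 31.7 M. With group means removed, the correlation of log2 CPM with log2 depth over the 24 libraries was r = −0.45 for *Hspa5* (permutation p = 0.0509, Spearman rho −0.38, p = 0.107; r = −0.38 without the 2 libraries farthest in depth) and r = −0.22 for *Xbp1* (permutation p = 0.293, rho −0.26, p = 0.224; r = −0.42 without those 2). For *Sdf2l1* it was r = −0.27 (permutation p = 0.259, rho −0.26, p = 0.278; r = −0.48 without those 2). Over the family of 10 genes no relation passed Benjamini-Hochberg adjustment (adjusted p = 0.492 for each of the 3). With log2 library size as a covariate in the edgeR fit, the log2 fold changes in *ChAT-BKO* neurons were 0.58 for *Xbp1*, 0.30 for *Hspa5*, 0.41 for *Pdia4*, and 0.47 for *Sdf2l1*, and those in controls 0.62, 0.20, 0.22, and 0.28. The counts of the 10 genes that passed in this fit were 1 in controls, 3 in *ChAT-BKO* neurons, and 5 over both genotypes, as without the covariate. Without the 3 shallowest libraries the log2 fold changes in *ChAT-BKO* neurons became 0.53 for *Xbp1*, 0.31 for *Hspa5*, 0.37 for *Pdia4*, and 0.35 for *Sdf2l1*, and 1 of the 10 genes (*Xbp1*) in place of 3 passed in *ChAT-BKO* neurons. Without replicate 3 at ZT8 or replicate 6 at ZT20, 2 of the 10 passed there, *Hspa5* no longer among them, and without replicate 1 at ZT20, 4 passed, with *Sdf2l1* added.

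**Figure D3:**
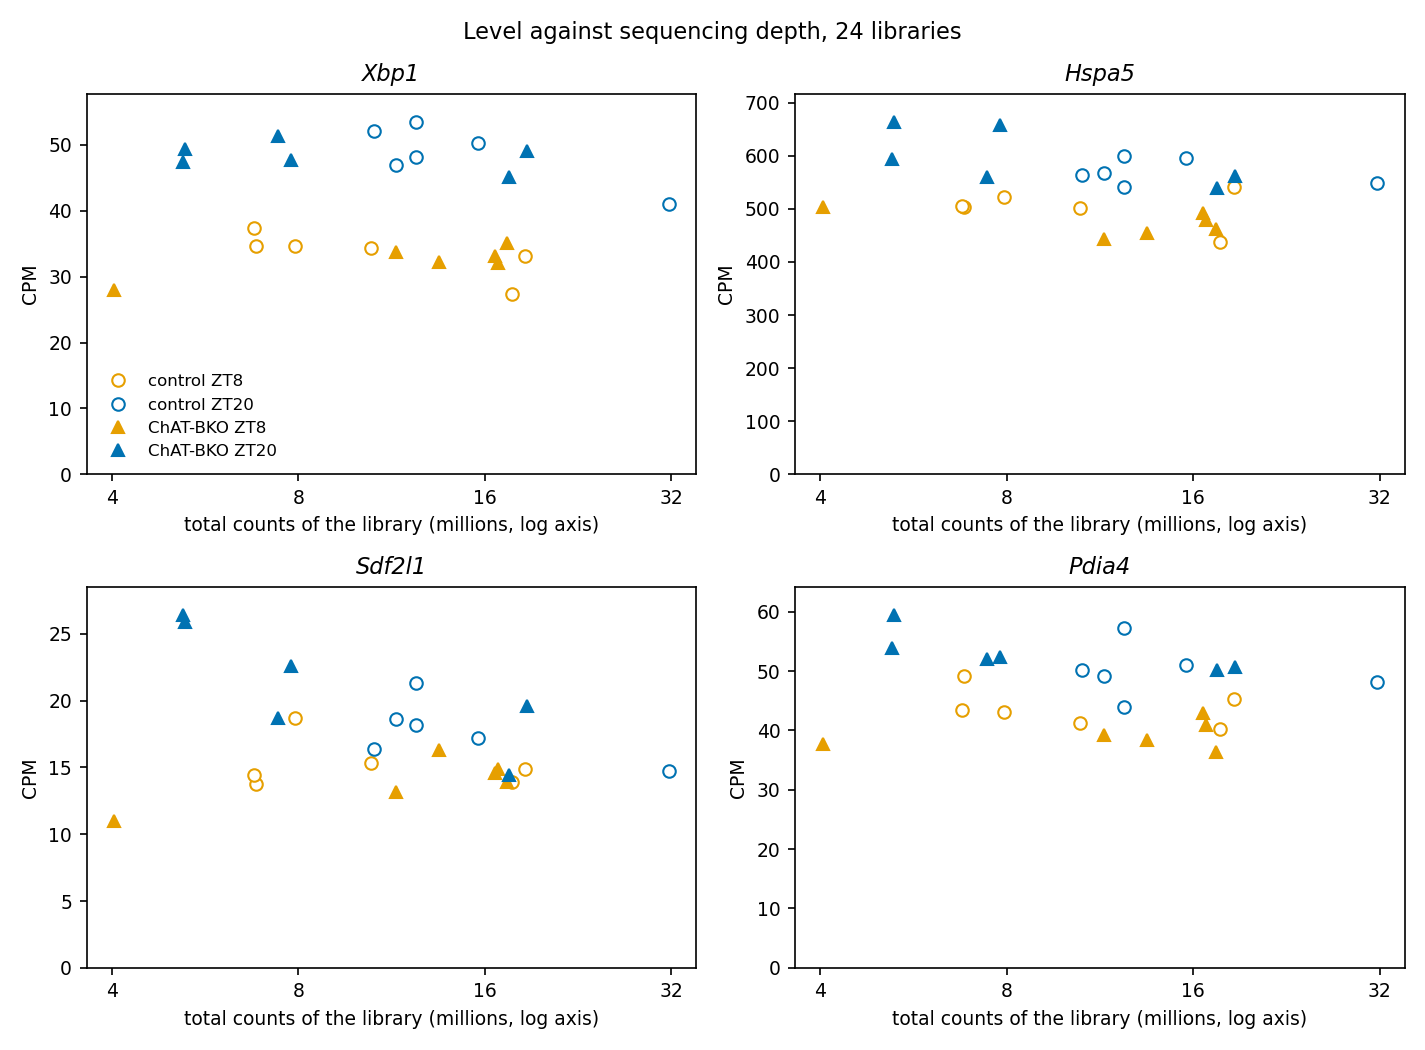
Level in CPM (vertical axis, from 0) of *Xbp1*, *Hspa5*, *Sdf2l1*, and *Pdia4* against the total counts of the library in M (log axis), with open circles for controls, filled triangles for *ChAT-BKO*, orange for ZT8, and blue for ZT20. *Sdf2l1* is highest in the shallow *ChAT-BKO* libraries at ZT20 (26.4 CPM at 5.22 M), while *Xbp1* at ZT20 stays between 45.1 and 51.3 CPM across the *ChAT-BKO* libraries.

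Whether loss of *Bmal1* changed the 10 transcripts was tested at each time, a contrast that did not serve to choose them. It draws on the same libraries as the contrasts of time, and the genes were chosen with earlier results of these data known. None of the 10 was differentially expressed between *ChAT-BKO* and control neurons at ZT8, where 0.175% of all genes tested were, or at ZT20, where 0.244% were (edgeR quasi-likelihood test, adjusted p under 0.05). At an unadjusted p under 0.05 the counts were 1 of 10 beside 4.80% of all genes and 0 of 10 beside 6.35%, and limma voom and DESeq2 also called 0 at both times. For *Xbp1* the log2 fold change was −0.03 at ZT8 (95% confidence interval −0.19 to 0.12, adjusted p = 1) and −0.01 at ZT20 (−0.15 to 0.13, adjusted p = 0.994), so a change beyond 0.874- to 1.09-fold at ZT8 or 0.904- to 1.10-fold at ZT20 lay outside the interval. *Hspa5* was at −0.09 (−0.20 to 0.03, adjusted p = 1) and 0.07 (−0.05 to 0.18, adjusted p = 0.890). *Pdia4* had the smallest unadjusted p at ZT8, with a log2 fold change of −0.15 (−0.29 to −0.02, edgeR adjusted p = 0.990), and stood at 0.08 at ZT20 (−0.06 to 0.22, adjusted p = 0.879). *Sdf2l1* had the widest change at ZT20, 0.23 (−0.04 to 0.49, adjusted p = 0.831), with overlapping libraries.

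The remaining genes ranged from −0.14 (*Dnajb9*) to 0.04 (*Ern1*) at ZT8 and from −0.05 (*Dnajb9*) to 0.11 (*Ern1*) at ZT20, and each 95% confidence interval held 0. At ZT8 the median log2 fold change of the 10 was −0.06, with 9 of 10 lower in *ChAT-BKO*, and at ZT20 it was 0.07, with 7 of 10 higher, beside −0.005 and 0 for all genes. For the mean of both times 0 of the 10 were called (edgeR; 0 of 10 also at an unadjusted p under 0.05, beside 7.04% of all genes, and 0 by DESeq2 and limma voom), beside 0.741% of all genes, and the log2 fold change of *Xbp1* was −0.02 (−0.12 to 0.08). A missing call does not show equal levels, and the intervals give the sizes that these libraries leave possible.

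**Figure D4:**
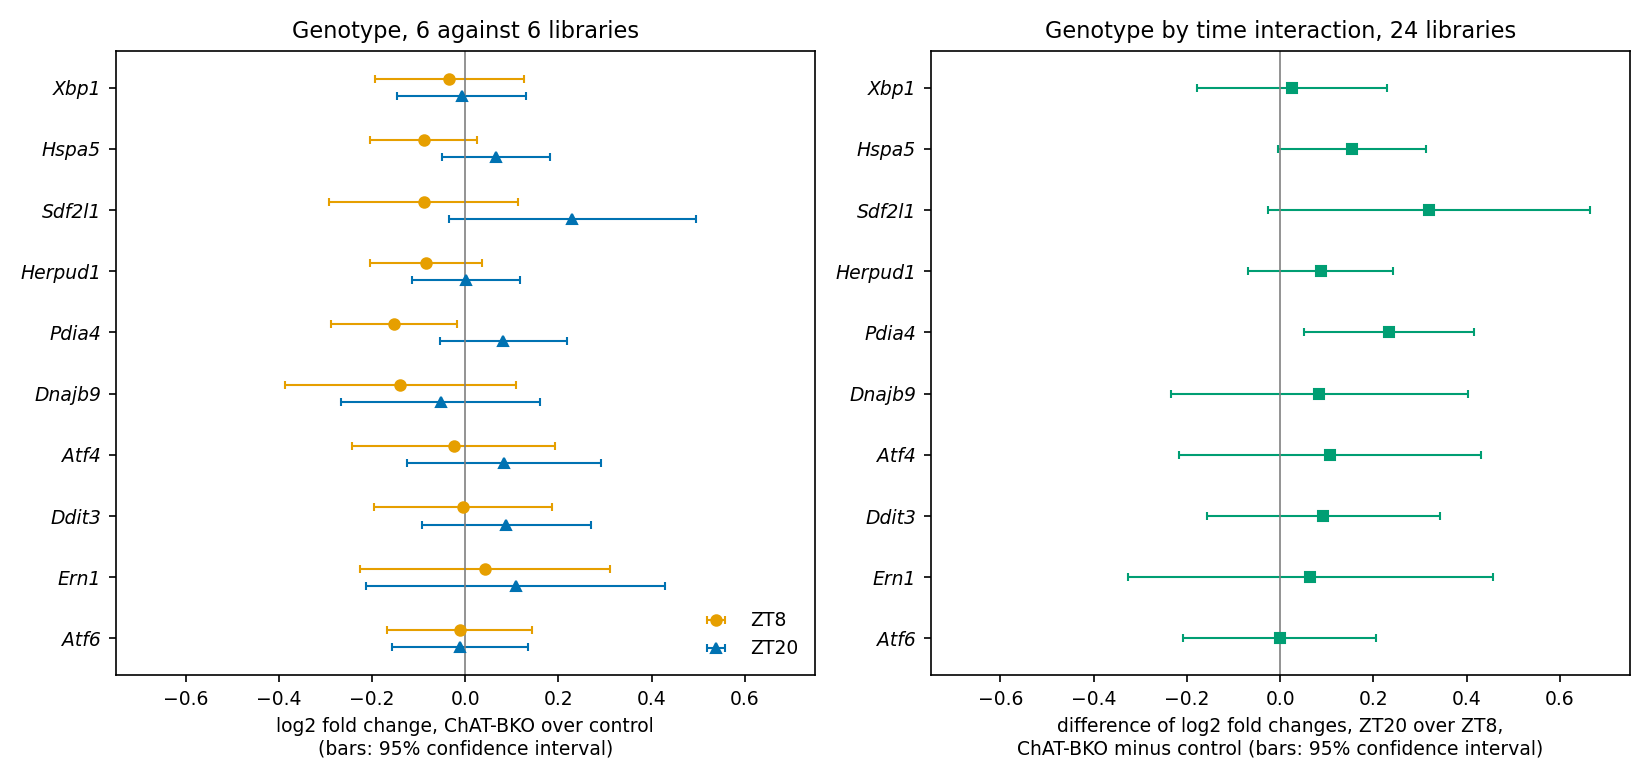
Left, log2 fold change of *ChAT-BKO* over control at ZT8 (orange circles) and ZT20 (blue triangles) for the 10 genes, and right, the difference between genotypes in the log2 fold change of ZT20 over ZT8 (green squares), each with its 95% confidence interval. Only the intervals of *Pdia4* at ZT8 (−0.29 to −0.02) and in the difference (0.05 to 0.41) leave out 0, and neither passed adjustment over all genes.

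The time-of-day difference itself was compared between genotypes by an interaction term on all 24 libraries. It was called for 0 of 21738 genes (edgeR, smallest adjusted p = 0.864), with 3.90% of all genes at an unadjusted p under 0.05, and 1 of the 10 genes, *Pdia4*, was among these. The difference of log2 fold changes, *ChAT-BKO* minus control, was 0.23 for *Pdia4* (0.05 to 0.41), 0.32 for *Sdf2l1* (−0.03 to 0.67), 0.15 for *Hspa5* (−0.01 to 0.31), and 0.03 for *Xbp1* (−0.18 to 0.23), and the adjusted p from edgeR was 1 for each. Without the 3 shallowest libraries these became 0.17, 0.12, 0.12, and −0.01. The contrasts behind these values served to choose the genes, so they are a description, and a larger difference by time in *ChAT-BKO* neurons was not shown for any of the 10.

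Beyond the 10 genes, 105 other genes of the response were taken as lists, and 104 of them could be tested. The lists were drawn up with earlier results of these data known, so the counts and p-values that follow describe these genes. For the mean of both genotypes, 8 of the 104 were higher at ZT20, beside 1.69% of all genes, and 0 lower, beside 1.00% (edgeR quasi-likelihood test, adjusted p under 0.05), with 7 of the 8 among 24 ER chaperones and folding enzymes. These were *Creld2*, *Manf*, *Dnajc1*, *Pdia6*, *Dnajb11*, *Dnajc3*, and *Pdia3*. The median log2 fold change of the chaperone list was 0.09, with 21 genes higher and 3 lower, beside 0.00 for all genes. In the other lists 0 of 14 sensors and processing factors (2 with an unadjusted p under 0.05), 0 of 20 genes of ER-associated degradation (1), 0 of 22 genes of the translocon and ER export (2), and 1 of 24 targets of ATF4 and CHOP (7) were called, with medians from −0.02 to 0.04, and 14.1% of all genes had an unadjusted p under 0.05. Within controls alone edgeR called 0 of the 104, beside 0.101% of all genes (15 at an unadjusted p under 0.05 beside 8.32%, and 2 called by DESeq2 and by limma voom), and within *ChAT-BKO* neurons 1, beside 0.285% (17 at an unadjusted p under 0.05 beside 9.42%).

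*Creld2*, an ER resident protein with disulfide isomerase activity, had means of 16.0 ± 2.84 CPM at ZT8 and 21.8 ± 3.08 CPM at ZT20 in controls and of 15.1 ± 2.33 and 22.6 ± 2.80 CPM in *ChAT-BKO* libraries, a log2 fold change over both genotypes of 0.49 (0.32 to 0.66; edgeR adjusted p = 0.000564). It was also the gene called within *ChAT-BKO* neurons (log2 fold change 0.56, edgeR adjusted p = 0.0248), a call lost without the 3 shallowest libraries (adjusted p = 0.204; alternatives between 8.23e-06 and 0.204) and without any of 7 single libraries (*ChAT-BKO* replicates 1, 2, 5, and 6 at ZT8 and 2, 5, and 6 at ZT20). *Manf*, a secreted and ER-resident factor that binds BiP, stood at 31.3 ± 3.74 and 41.3 ± 3.47 CPM in controls and at 31.5 ± 2.96 and 40.2 ± 5.69 CPM in *ChAT-BKO* libraries, at ZT8 and ZT20, with a log2 fold change over both genotypes of 0.37 (0.24 to 0.49; edgeR adjusted p = 0.000686). *Pdia6*, another disulfide isomerase, stood at 99.0 ± 8.98 and 125 ± 9.36 CPM in controls and at 95.6 ± 4.20 and 122 ± 16.8 CPM in *ChAT-BKO* libraries (0.34, 0.24 to 0.45; edgeR adjusted p = 0.000148). *Manf* and *Pdia6* each overlap other annotated genes.

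*Dnajc1*, an ER membrane cochaperone, differed by 0.42 (0.21 to 0.64; edgeR adjusted p = 0.0233), at 3.36 to 6.03 CPM in controls and 3.17 to 6.28 CPM in *ChAT-BKO* libraries, with overlap between times. The BiP cochaperones *Dnajb11* and *Dnajc3* differed by 0.18 (0.09 to 0.26; edgeR adjusted p = 0.0140) and 0.17 (0.08 to 0.25; edgeR adjusted p = 0.0198), and the disulfide isomerase *Pdia3* by 0.15 (0.07 to 0.22; edgeR adjusted p = 0.0274). Without the 3 shallowest libraries 4 of the 24 chaperones were called, and these last 3 genes were not (adjusted p = 0.0615, 0.0625, and 0.106, the highest over the alternatives, whose lowest were 0.000302, 0.00394, and 0.00117). *Pdia3* lost its call without any of 8 single libraries (control replicate 1 at ZT8, control replicates 1 and 3 at ZT20, *ChAT-BKO* replicates 2, 3, and 5 at ZT8, and *ChAT-BKO* replicates 5 and 6 at ZT20) and *Dnajc1* without *ChAT-BKO* replicate 1 or 3 at ZT20. Of the chaperones not called, *Hsp90b1* (0.16, edgeR adjusted p = 0.0935), *Calr* (0.17, edgeR adjusted p = 0.123), *Canx* (0.09, edgeR adjusted p = 0.192), and *Hyou1* (0.08, edgeR adjusted p = 0.251) are named as abundant partners of BiP or as lectins of the folding cycle, chosen after their values were seen.

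**Figure D5:**
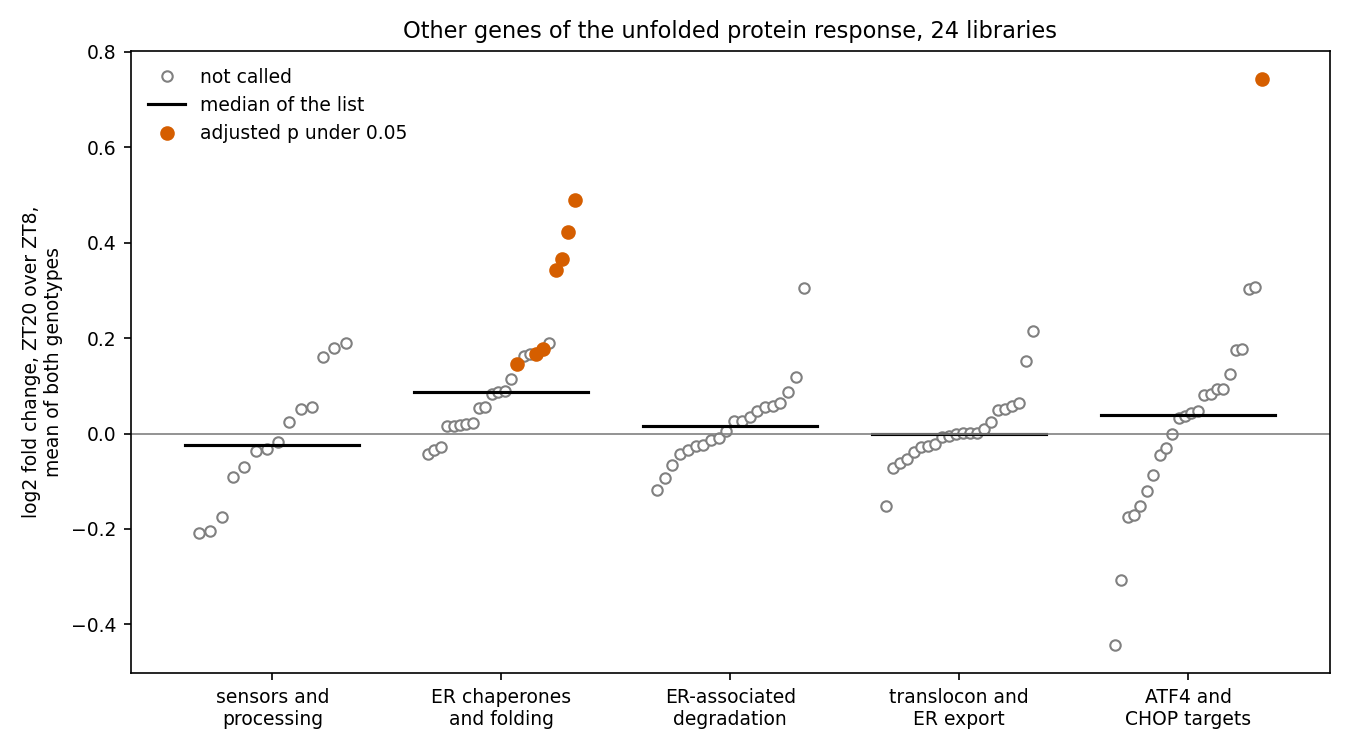
Log2 fold change of ZT20 over ZT8, mean of both genotypes (vertical axis), for the 104 other genes of the response in 5 lists. Filled points have an adjusted p under 0.05 and black lines are list medians; 7 of 24 chaperones and folding enzymes are filled, all above 0, and in the other lists only *Slc7a11* is, at 0.74.

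The promoter windows of 21 of the 24 chaperone genes were at hand. An ERSE or ERSE-II lay in 4 of the 6 called genes with a window and in 4 of the 15 genes not called, and the elements of the called genes are shown because they carry the ERSE seen in *Hspa5* or, in *Dnajb11*, the ERSE-II seen in *Herpud1*. The capitals mark the fixed letters, and the elements lie at chr15:88819520-88819538 and chr12:17266491-17266509, chr14:118937827-118937845, and chr16:22857852-22857862.
Creld2: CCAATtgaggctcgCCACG
Pdia6: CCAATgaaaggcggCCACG
Dnajc3: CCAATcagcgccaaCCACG
Dnajb11: ATTGGcCCACG
The element of *Creld2* is written as read on the strand opposite to transcription, at −126 to −108, and the others in the direction of transcription, at −98 to −80, −105 to −87, and 8 to 18. *Calr*, *Canx*, *Ero1b*, and *Hsp90b1* held an ERSE and were not called.

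*Slc7a11*, the cystine carrier and a known ATF4 target, was low throughout, at 0.741 ± 0.22 and 1.60 ± 0.416 CPM in controls and at 1.18 ± 0.270 and 1.59 ± 0.593 CPM in *ChAT-BKO* libraries, at ZT8 and ZT20. Its log2 fold change over both genotypes was 0.74 (0.37 to 1.12; edgeR adjusted p = 0.0196). *Slc7a11* lay below input in all 24 IP libraries, at a mean log2 ratio of −3.00 on the TMM scale, beside a median of −3.20 for the oligodendrocyte markers. The part of other cells in its level was not tested. Between genotypes, 1 of the 104 genes was called by edgeR at ZT8 (3 at an unadjusted p under 0.05 beside 4.80% of all genes) and 0 at ZT20 (8 at an unadjusted p under 0.05 beside 6.35%, and 1 called by DESeq2 and 0 by limma voom). The called gene, *Ppib*, which encodes the ER cyclophilin B, averaged 70.3 ± 3.95 CPM over the control and 87.0 ± 5.43 CPM over the *ChAT-BKO* libraries at ZT8, which did not overlap (log2 fold change 0.31, 0.18 to 0.43; edgeR adjusted p = 0.0349). At ZT20 its difference was 0.28 (0.09 to 0.47; edgeR adjusted p = 0.478), and over both times 0.29 (0.18 to 0.41; edgeR adjusted p = 0.00374). The call at ZT8 was lost with all 24 libraries in 1 fit (adjusted p = 0.190; alternatives between 8.31e-05 and 0.190) and without any of 7 single libraries (control replicates 1, 3, and 4 or *ChAT-BKO* replicates 1 to 4 at ZT8), while the call over both times held in all alternatives run.

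Markers of other cells moved with time of day to some extent. All 6 endothelial markers were higher at ZT20 for the mean of both genotypes (median log2 fold change 0.30), with *Cldn5* called at 0.73 (edgeR adjusted p = 0.00167), and their summed level ran from 9.89 to 14.1 CPM and from 11.6 to 22.1 CPM in controls and from 9.41 to 13.3 CPM and from 12.4 to 18.3 CPM in *ChAT-BKO* libraries, at ZT8 and ZT20. Of 6 astrocyte markers 5 were higher and 1, *Gjb6*, was called at 0.39 (edgeR adjusted p = 0.00472), with sums of 93.4 to 142 CPM at ZT8 and 102 to 141 CPM at ZT20. The 6 oligodendrocyte markers had a median log2 fold change of 0.02 and the 6 microglial markers one of −0.01, with 0 called in either. Among the microglial markers 2, *Cx3cr1* (−0.41) and *Aif1* (−0.54), were lower at an unadjusted p under 0.05 (edgeR). The 7 cholinergic markers had a median log2 fold change of −0.01 with 0 called (edgeR; 1 at an unadjusted p under 0.05, beside 14.1% of all genes). The 10 muscle markers mostly had log2 fold changes of opposite sign in the genotypes, so that the mean over both was small (median −0.21). In controls 9 of the 10 had a negative log2 fold change of ZT20 over ZT8 (median −1.55, *Tnnc2* at −1.95), 8 of them at an unadjusted p under 0.05 beside 8.32% of all genes. In *ChAT-BKO* neurons all 10 had a positive one (median 0.72, *Myh4* at 1.56), 1 of them at an unadjusted p under 0.05 beside 9.42%. None passed adjustment in either genotype (edgeR), and the sums of the 10 had medians of 32.3 and 12.5 CPM in controls and of 7.80 and 75.7 CPM in *ChAT-BKO* libraries, at ZT8 and ZT20. The part of these cells in the levels of the 10 genes and the chaperones was not tested. Of 9 clock genes, 4 were higher and 5 lower at ZT20 in each genotype, and 1 was called in each, beside 0.101% and 0.285% of all genes. The called gene, *Dbp*, was lower at ZT20 in controls (log2 fold change −0.86, edgeR adjusted p = 0.00846) and in *ChAT-BKO* neurons (−0.72, edgeR adjusted p = 0.00249). For the mean of both genotypes *Ciart* was also called lower (−0.38, edgeR adjusted p = 0.0269).

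The genes whose level over the 24 libraries was most like that of *Xbp1*, by Pearson's r of log2 CPM among 10429 genes at 5 CPM or more on average, were *Prpf38b* (0.92), *P4ha1* (0.90), *Mettl7a1* (0.90), *Banp* (0.89), and *Hnrnpu* (0.89). They share the day and night grouping of the libraries with *Xbp1*, and *P4ha1*, a subunit of the collagen prolyl hydroxylase, is itself an ER enzyme. *P4ha1* had means of 15.7 ± 2.02 and 22.6 ± 2.33 CPM in controls and of 15.0 ± 1.65 and 24.4 ± 1.74 CPM in *ChAT-BKO* libraries, at ZT8 and ZT20. Among the other 9 genes of the set, *Pdia4* (r = 0.84), *Hspa5* (0.82), *Sdf2l1* (0.72), and *Herpud1* (0.71) stood at ranks 17, 27, 102, and 110 of the genes, while *Ddit3* had r = −0.33, and these values rest on the same times that served to choose the genes.

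Within groups, where time and genotype are removed, the relation of these genes to *Xbp1* was weak. Over 24 libraries with group means removed, r with *Xbp1* was 0.40 for *Sdf2l1* (permutation p = 0.0308, rho 0.13, p = 0.526), 0.38 for *Pdia4* (p = 0.101, rho 0.33, p = 0.152), 0.36 for *Dnajb9* (p = 0.107, rho 0.34, p = 0.117), and 0.29 for *Hspa5* (p = 0.167, rho 0.11, p = 0.599). In a family of 12 relations none passed Benjamini-Hochberg adjustment (adjusted p = 0.343 for *Sdf2l1*, *Pdia4*, and *Dnajb9* and 0.400 for *Hspa5*). Without the 2 libraries farthest in *Xbp1*, control replicate 2 at ZT8 and control replicate 5 at ZT20, the values became 0.32, 0.27, 0.28, and −0.06. *Herpud1* had r = −0.06, and *Ern1*, *Atf4*, and *Ddit3* had −0.31, −0.22, and −0.24. Among 10429 genes, whose median r was −0.02, the r over 24 libraries stood at percentile 96.7 for *Sdf2l1*, 95.9 for *Pdia4*, 95 for *Dnajb9*, and 89.4 for *Hspa5*. It stood at 78.1 for *Atf6*, 45.1 for *Herpud1*, 25 for *Atf4*, and 21.7 for *Ddit3*. The genes most like *Xbp1* within groups were *Igf2* (0.76), *Slc35c1* (0.71), *Lims1* (0.70), *Chaf1a* (0.67), and *Klf15* (0.65), none of which belongs to the lists of the response.

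Set against the pooled input, 6 of the 10 genes were higher in the mean IP library, with a median log2 ratio of 0.22 beside −0.07 for all genes tested, and the input is 1 library, so the ratios carry no test. *Hspa5* stood highest, at a log2 ratio of 1.76 on TMM-scaled libraries and lower, but above 0, on total counts, followed by *Sdf2l1* at 1.01, *Atf4* at 0.76, *Herpud1* at 0.60, and *Pdia4* at 0.37, each above input in all 24 libraries on the TMM scale. *Xbp1* was near the input level (mean log2 ratio −0.06 on TMM-scaled libraries and −0.52 on total counts, above input in 11 of 24 libraries on the TMM scale), and *Dnajb9* (−1.17) and *Ern1* (−0.96) were below it in all 24. Scaled by total counts alone, the median of the 10 genes was −0.23, so the side of the input on which a middling gene falls depends on the scaling. Of the chaperones called for time over both genotypes, *Dnajc1* (−1.18) and *Dnajc3* (−0.50) were below input in all 24 libraries on the TMM scale. The others, *Pdia3* (1.13), *Creld2* (1.00), *Pdia6* (1.00), *Dnajb11* (0.71), and *Manf* (0.36), had mean log2 ratios above 0.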

How the data were processed

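Ribosome-bound mRNA of spinal cord cholinergic neurons was sequenced from 24 mice beside 1 pooled input. Per the labels and the methods of the study, libraries were made with a stranded poly(A) kit, reads were aligned to mm10 with STAR (2.7.5), and gene counts were estimated with RSEM (the submitters' notes also name DESeq2 1.32.0). The authors deposited the expected counts of RSEM per gene, without normalization, in 25 columns for 50559 genes. Of all values 6.11% were not whole, and they were rounded. Groups and replicate numbers came from the sample labels, and whether replicates shared anything beyond the number was not stated. The members and gene lists were chosen with earlier results of these data known.

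A gene was kept if its sum over the IP libraries reached 10 counts (21738 genes), which is how the study's minimum of 10 counts was read. Libraries were scaled by TMM and tested with edgeR 4.0.16 (R 4.3.3) by the quasi-likelihood test, two-sided, with Benjamini-Hochberg adjustment over all genes. Two-group contrasts used their own 12 libraries, and the interaction and the means over both genotypes or both times used all 24. SEs were derived from the F statistic, and log2 CPM had a prior count of 2. A count of 0 allowed a level of up to 0.0948 to 0.734 CPM by library (3 counts), and such limits cover counting error only. Alternatives were DESeq2 1.42.0, limma 3.58.1 voom with quality weights, DESeq2 size factors, no filter, filterByExpr, replicate number as a block, all 24 libraries in each fit, and each library left out. Chosen after seeing the data were TMM over the compared libraries, library size as a covariate, the regression slope of log2 CPM against log2 transcript length, per library, as covariate (18934 genes with a length), and leaving out the 3 libraries under 5.5 M. The fits were tested on simulated data. Correlations used 100000 permutations within groups (scipy 1.17.1, Python 3.11.15), two-sided. Lengths and positions came from GENCODE on GRCm38, and promoter sequences from RefSeq on GRCm38.p6. Named were the 10 members and every list gene called in a two-group comparison or for time over both genotypes. The 5 genes most like *Xbp1* were named over all IP libraries and again within groups. Some chaperones not called were named after their values were seen or for a promoter element. Single marker and clock genes were named as well.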

Additional observations from a re-analysis of the deposited data

Results flagged for a closer look

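Within the 4 groups, the highest or lowest library was compared with the other 5 by Dixon's test for each of the 10 genes, and 2 of 40 groups stood out, where chance gives about 1 in 20. *Ern1* in control replicate 4 at ZT20 was at 3.32 CPM beside 4.51 to 5.05 CPM in the other libraries of the group. *Sdf2l1* in control replicate 1 at ZT8 was at 18.7 CPM beside 13.8 to 15.3 CPM in the others.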

How the results depend on the processing

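Of single fold changes under the alternatives, 2150 kept their direction and, outside the time effects of the 10 genes, their side of the threshold. Outside those time effects 31 lost a call. The time effects of the 10 genes were judged by direction and by a shift smaller than the SD within groups, so calls they gained or lost are not among the 31. In all, 105 turned sign, 75 in genotype or interaction effects and 30 in effects of time, all of the 10 genes. No genotype effect of the 10 was called in any alternative run. Over both genotypes 5 of the 10 were called in each alternative but the one without the 3 shallowest libraries, with 4. In *ChAT-BKO* neurons the 3 of 10 called for time became 5 with DESeq2, 5 with all 24 libraries in 1 fit, 6 with the transcript length slope as covariate, and 1 without the 3 shallowest libraries, with 2 to 4 when 1 library was left out. In controls the 1 called became 2 with the length slope. Calls over all genes moved as well. In *ChAT-BKO* neurons they went from 50 higher and 12 lower to 137 and 81 with DESeq2 and 104 and 36 with all 24 libraries. They were 285 and 199 with the length slope and 12 and 6 without the 3 shallowest libraries. In controls they went from 18 and 4 to 199 and 179 with the length slope. The cause of these moves was not tested, and the fit without the 3 shallowest libraries differed in both depth and number of libraries.

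Of the other 104 genes, the 0 called for time in controls became 2 with DESeq2, 2 with limma voom, 2 with no filter, 1 with all 24 libraries, 1 with TMM over the compared libraries, 1 with library size as covariate, 7 with the length slope, 1 without the 3 shallowest libraries, and 0 to 2 when 1 library was left out. Over all genes, calls in controls were 73 higher and 54 lower with DESeq2, 26 and 9 with limma voom, and 20 and 4 with no filter. In *ChAT-BKO* neurons the 1 called became 2 with DESeq2, 2 with no filter, 2 with all 24 libraries, 0 with library size as covariate (*Creld2* at 0.51), 11 with the length slope, 0 without the 3 shallowest (*Creld2* at 0.47), and 0 to 2 when 1 library was left out. Between genotypes the 1 called at ZT8 became 0 with all 24 libraries (*Ppib* at 0.30) or library size as covariate (*Ppib* at 0.29) and 0 to 1 when 1 library was left out, and the 0 called at ZT20 became 1 with DESeq2 and 2 with the length slope. Over all genes, calls at ZT20 went from 45 higher and 8 lower to 80 and 13 with DESeq2 and 136 and 41 with the length slope. For time over both genotypes, 1 sensor gene was called with DESeq2, filterByExpr, or the length slope, and 0 to 1 when 1 library was left out. Of degradation genes 1 was called with DESeq2 or limma voom and 2 with the length slope, and 0 to 1 when 1 library was left out. Of translocon genes 2 were called with the length slope, and 0 to 1 when 1 library was left out. Of ATF4 and CHOP targets 2 were called with DESeq2, DESeq2 size factors, or filterByExpr and 3 with the length slope, and 1 to 2 when 1 library was left out. Of chaperones 4 were called without the 3 shallowest libraries and 6 to 8 when 1 library was left out. Over all genes, calls for time over both genotypes went from 367 higher and 218 lower to 510 and 461 with DESeq2. They were 796 and 766 with the length slope and 288 and 162 without the 3 shallowest libraries. The median log2 ratio of the 10 genes to input was −0.234 on total counts. The length slopes ran from 0.177 to 0.386 over libraries. Depth limited *Ern1* most, with 20 to 150 counts per library.

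Whether replicate numbers paired the libraries was not settled. Residual correlations of same-numbered libraries ran from −0.365 to 0.590, and 1 or 2 of 6 libraries in each pair of groups correlated best with their own number. With the replicate number as a block, 3 of the other 104 genes in place of 0 were called for time in controls. The block changed no other count of calls among the members and the listed genes beyond 1.5 times. Over all genes, calls for time in controls went from 18 higher and 4 lower to 60 and 22 with the block. Calls between genotypes at ZT8 went from 26 and 12 to 46 and 22, and at ZT20 from 45 and 8 to 54 and 10. Calls fell for time in *ChAT-BKO* neurons (50 and 12 to 38 and 9) and for time over both genotypes (367 and 218 to 336 and 188). They also fell for genotype over both times (115 and 46 to 105 and 41).

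For ZT20 over ZT8, signs turned in 10 effects, none of them called with the settings of the report. In controls, *Atf4* (reported as 0.001) ran over all alternatives from −0.058 to 0.050, *Atf6* from −0.026 to 0.055, and *Ern1* from −0.020 to 0.097. In *ChAT-BKO* neurons, *Atf4* was at −0.022 without the 3 shallowest libraries, *Atf6* ran from −0.038 to 0.072, *Ern1* from −0.046 to 0.150, and *Ddit3* from −0.089 to 0.002. *Atf4* there reached up to 0.178, and its lowest adjusted p over the alternatives was 0.0232, so it was called in some alternative. Over both genotypes, *Atf4* was at −0.006 without the 3 shallowest, *Atf6* ran from −0.007 to 0.043, and *Ern1* from −0.008 to 0.091. Signs also turned between genotypes. For *ChAT-BKO* over control at ZT8, *Ddit3* was at 0.000 with TMM over the compared libraries, 0.005 with the length slope, and 0.011 without the 3 shallowest (−0.047 to 0.043 when 1 library was left out), and *Atf4* at 0.011 with the length slope and 0.030 without the 3 shallowest (−0.081 to 0.031). *Atf6* at ZT8 ran from −0.056 to 0.024 and *Xbp1* from −0.092 to 0.003 when 1 library was left out. At ZT20, *Herpud1* was at −0.002 with DESeq2 and filterByExpr, −0.005 with no filter, −0.004 with TMM over the compared libraries, −0.037 with library size, and −0.010 without the 3 shallowest (−0.032 to 0.033), *Xbp1* at 0.002 with limma voom (−0.065 to 0.013), *Atf6* at 0.064 with library size and 0.044 without the 3 shallowest (−0.064 to 0.005), and *Atf4* at −0.047 with library size (−0.007 to 0.155). *Ern1* at ZT20 ran from −0.021 to 0.171. For the interaction, *Xbp1* was at −0.024 with library size, −0.006 with the length slope, and −0.012 without the 3 shallowest (−0.035 to 0.084), *Atf6* at 0.001 with DESeq2, 0.040 with library size, and 0.051 without the 3 shallowest (−0.059 to 0.044), and *Atf4* at −0.027 without the 3 shallowest. Leaving out 1 library, the interaction of *Dnajb9* ran from −0.006 to 0.148 and of *Ern1* from −0.068 to 0.124. Over both times, *Atf6* was at 0.016 without the 3 shallowest (−0.035 to 0.001), *Atf4* ran from −0.013 to 0.064, and *Hspa5* from −0.035 to 0.001. The r with *Xbp1* ran from −0.08 to 0.28 for *Atf6*, −0.25 to 0.22 for *Herpud1*, −0.01 to 0.45 for *Hspa5*, −0.04 to 0.20 for glial markers, and −0.22 to 0.10 for muscle markers.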
